A study of Danio rerio with 10 samples.

Results

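This account covers the nuclear genes for complexes III, IV and V of the mitochondrial respiratory chain and for cytochrome c in zebrafish hearts under hypoxia and normoxia. They were chosen by name, as the genes whose single symbol begins with uqcr, cox4 to cox8, cycs or atp5, or is cyc1. The rule gave 41 genes of the 8793 with a probe set of their own, 8 in complex III, 1 for cytochrome c, 14 in complex IV and 18 in complex V. The study read heart RNA on 10 Affymetrix zebrafish arrays, 5 from hypoxia and 5 from normoxia, and in each group array 5 repeats the RNA of sample 2. The sources used here do not state the strain, age or sex of the fish, how low the oxygen was, how long it lasted or how many hearts made up a sample.

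Complex III takes electrons from ubiquinol and passes them to cytochrome c, a small soluble carrier between the inner and outer mitochondrial membranes. Complex IV, cytochrome c oxidase, takes them from cytochrome c and reduces oxygen to water, and the proton gradient built on the way drives complex V, the ATP synthase. Heart muscle makes most of its ATP in this way. In mammals subunit 4 of complex IV exists in 2 forms, and the second, COX4I2, is known as the form that low oxygen raises in several cell types.

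The number of arrays limits the precision, and the arrays did not all carry separate samples. Hypoxia arrays 1 and 4, and normoxia arrays 3 and 4, are labelled as separate samples. They differed by no more than the less alike pair of repeat arrays of 1 RNA. The SD of log2 differences over 2247 bright probe sets was 0.112 for the hypoxia pair and 0.0927 for the normoxia pair. The technical pairs gave 0.105 in hypoxia and 0.151 in normoxia. Hypoxia arrays 1 and 4 were thus slightly less alike than the technical pair of their own group. Each pair labelled as separate samples entered the comparison as a single averaged sample. The groups compared were therefore hypoxia 1/4, 2 and 3 against normoxia 1, 2 and 3/4, with n = 3 in each. The p-values measure the spread between these samples, which may be partly technical. Median deposited intensity per array was 36.2 to 51.6 units. All levels below are log2 intensities after quantile normalization, and a difference is hypoxia minus normoxia on that scale. Levels of different probe sets cannot be ranked against each other, and only changes of one relative to another are given, for paralogs.

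Most of the genes had lower transcript levels in hypoxic hearts. Of the 41 genes, 21 fell and 0 rose at an adjusted p under 0.05 in limma, while 3.01% of all 10851 probe sets tested were called lower and 0.968% higher, 3.98% in either direction. At an unadjusted p under 0.05 in limma there were 38 lower and 1 higher, and 2300 of the 10851 probe sets in either direction. For the other fits below, the share of all probe sets at this unadjusted p is not given. The median difference over the 41 genes was -0.32, which is 80.0% of the normoxia level, against -0.05 over all probe sets tested. Differences were below 0 for 39 of the 41 genes and for 6175 of the 10851 probe sets tested. These transcripts are bright on the array, with a median level of 11.34. Of the 2234 probe sets with a mean of at least 8, 8.01% were called lower and 2.73% higher, with a median difference of -0.03. Of the 513 with a mean of at least 10, which include most of the 41 genes, 14% were called lower. In this set 256 were below 0 and the median difference was 0.00. In 38 of the 41 genes every hypoxia sample lay below every normoxia sample. That pattern was found in 17.3% of all probe sets (27.2% in either direction). Of the 2234 with a mean of at least 8, 23.9% showed it, as did 152 of the 513 with a mean of at least 10.

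The count of called genes depends on single samples and on how the spread is modelled. Without hypoxia 3 it was 0 (36 at an unadjusted p under 0.05), without normoxia 1 it was 1 and without normoxia 3/4 it was 2. Without hypoxia 1/4 it was 3, without hypoxia 2 it was 4 and without normoxia 2 it was 15. Each of these fits had fewer samples. It was 0 when limma's variance prior did not follow intensity (32 at an unadjusted p under 0.05). That fit called 2 of all 10851 probe sets in either direction, and the fit without hypoxia 3 called 1. Of all probe sets, 0.12% were called lower without normoxia 1, 0.442% without normoxia 3/4, 0.553% without hypoxia 1/4 and 1.02% without hypoxia 2. Without normoxia 2 the share was 0.691%. In the reported fit the share was 3.01%. Over the 6 fits that each left out 1 sample, the median difference stayed between -0.36 and -0.30.

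**Figure D1:**
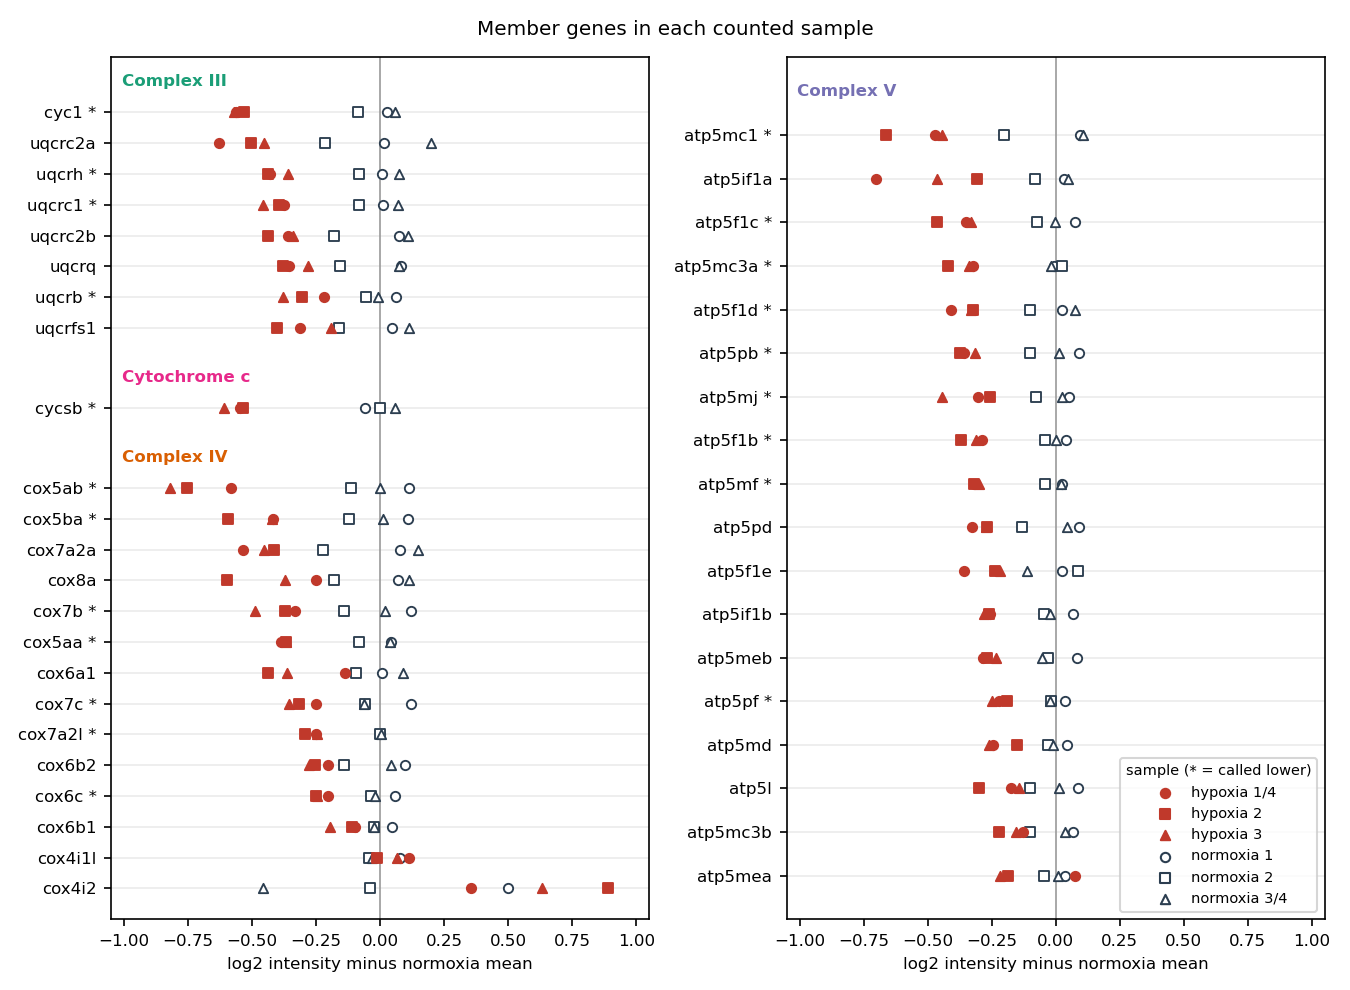
Level of each of the 41 genes in each counted sample, as log2 intensity minus the mean of the 3 normoxia samples, grouped by complex; filled red symbols are hypoxia samples, open symbols normoxia samples, and an asterisk marks the 21 genes called lower. For 38 genes all red symbols lie left of all open ones; cox4i1l, cox4i2 and atp5mea are the exceptions.

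In complex III, 4 of 8 genes fell, all 8 differences were below 0 and the median was -0.39. In all 8 the hypoxia samples lay below the normoxia samples without overlap. The lowest and highest differences were -0.55 for cyc1 and -0.30 for uqcrfs1 and uqcrb.

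The electron-carrying subunits of complex III are cytochrome b, cytochrome c1 and the Rieske iron-sulfur protein. The gene for cytochrome c1, cyc1, read 10.89, 10.92 and 10.89 in hypoxia 1/4, 2 and 3, and 11.48, 11.37 and 11.51 in normoxia 1, 2 and 3/4. The hypoxia samples spanned a far narrower range than the distance to the lowest normoxia sample, 0.45. The difference was -0.55 (SE 0.06, n = 3 per group, limma adjusted p = 0.0150), or 68.1% of the normoxia level. The Rieske protein gene, uqcrfs1, read 11.29 ± 0.11 in hypoxia and 11.59 ± 0.14 in normoxia (SD, n = 3) and was not called (difference -0.30, limma adjusted p = 0.120).

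The core proteins of complex III lie on its matrix side and carry no electrons. For uqcrc1 the levels were 10.74, 10.72 and 10.66 in hypoxia 1/4, 2 and 3 and 11.13, 11.03 and 11.19 in normoxia 1, 2 and 3/4. It fell to 75.3% of normoxia, by 0.41 on the log2 scale (SE 0.06, limma adjusted p = 0.0269). Core protein 2 has 2 genes in zebrafish, and neither was called. The level of uqcrc2a was 9.19, 9.31 and 9.36 in hypoxia and 9.83, 9.60 and 10.01 in normoxia in the same sample order. The normoxia samples were spread over a wider range than the hypoxia samples, and the difference of -0.53 had a limma adjusted p of 0.0606. A second, dim uqcrc2a probe set gave -0.64 (limma adjusted p = 0.172) and was above the background bound on 1 of 5 hypoxia and 3 of 5 normoxia arrays. The other gene, uqcrc2b, read 10.39 ± 0.05 in hypoxia and 10.77 ± 0.16 in normoxia, a difference of -0.38 (SD, n = 3, limma adjusted p = 0.0702).

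Among the small subunits of complex III, uqcrh (the hinge protein, which helps cytochrome c1 meet cytochrome c) read 10.50, 10.49 and 10.57 in hypoxia and 10.94, 10.85 and 11.00 in normoxia. It fell to 75.3% of normoxia (-0.41, SE 0.06, limma adjusted p = 0.0269). For uqcrb, a subunit bound near the ubiquinone site, the levels were 11.63, 11.55 and 11.48 in hypoxia and 11.92, 11.80 and 11.85 in normoxia. It fell to 81.2% of normoxia (-0.30, SE 0.06, limma adjusted p = 0.0423). The third, uqcrq, had a difference of -0.34 and was not called (limma adjusted p = 0.0643).

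Cytochrome c was represented by 1 gene, cycsb. Its product carries electrons from complex III to complex IV and, once released into the cytosol, takes part in caspase activation. Its levels were 11.09, 11.10 and 11.03 in hypoxia 1/4, 2 and 3 and 11.58, 11.64 and 11.70 in normoxia 1, 2 and 3/4. The gap of 0.48 between the groups was the widest among the 41 genes. The difference was -0.56 (SE 0.05, limma adjusted p = 0.0146), or 67.7% of normoxia, and cycsb passed the threshold in 21 of the 24 settings tried, more than any other of the 41 genes.

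In complex IV, 7 of 14 genes fell, and 12 differences were below 0, with a median of -0.31. The 12 genes below 0 had groups that did not overlap. The other two were both genes of subunit 4, so the largest fall and the largest difference above 0 among all 41 genes were both in this complex.

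Subunits 5a and 5b of complex IV are nuclear-encoded and sit beside the catalytic core on the matrix side. All 3 of their genes analysed here fell, and cox5bb and cox5b2 were not analysed. For cox5ab the levels were 10.24, 10.07 and 10.00 in hypoxia 1/4, 2 and 3, and 10.93, 10.71 and 10.82 in normoxia 1, 2 and 3/4. This was the largest fall of the 41 genes, -0.72 (SE 0.09, limma adjusted p = 0.0218), to 60.7% of normoxia. Its paralog cox5aa read 11.46, 11.48 and 11.48 in hypoxia, nearly equal values, and 11.90, 11.77 and 11.89 in normoxia, and fell to 77.2% (-0.37, SE 0.05, limma adjusted p = 0.0235). For cox5ba, a gene of the zinc-binding subunit 5b, the levels were 9.70, 9.53 and 9.70 in hypoxia and 10.23, 10.00 and 10.13 in normoxia. It fell to 71.9% (-0.48, SE 0.09, limma adjusted p = 0.0391).

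Subunit 4 is the largest nuclear-encoded subunit and a site of regulation by ATP. Of its 2 genes analysed here 0 fell, and a further gene, cox4i1, was not analysed. The gene cox4i1l read 12.47, 12.34 and 12.42 in hypoxia and 12.43, 12.31 and 12.32 in normoxia, groups that overlapped. Its difference was 0.055 (SE 0.05, limma adjusted p = 0.599) and was above 0 in 23 of the 24 settings. It was -0.055 under median scaling, which also moved the median of all probe sets from -0.05 to -0.14. Under cyclic loess it was 0.21 (limma adjusted p = 0.0511). The gene cox4i2 read 6.74, 7.27 and 7.01 in hypoxia 1/4, 2 and 3, and 6.88, 6.34 and 5.93 in normoxia 1, 2 and 3/4. Normoxia 1 lay above hypoxia 1/4, so these groups overlapped as well. The mean difference of 0.62 (SE 0.26), or 154% of normoxia, was the largest above 0, but cox4i2 was not called (unadjusted p = 0.0497, limma adjusted p = 0.235). Over the 24 settings its difference ran from 0.40 to 0.87 and was called in 0, with limma adjusted p from 0.0704 to 0.444. The lower end came without normoxia 3/4 and the upper end without normoxia 1.

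Small subunits of complex IV surround the core and contribute to its assembly and to contacts between enzymes. Of these 9 genes 4 fell, and all 9 were below 0. The level of cox7b was 11.79, 11.75 and 11.64 in hypoxia and 12.25, 11.98 and 12.15 in normoxia, and it fell to 75.9% (-0.40, SE 0.08, limma adjusted p = 0.0429). The other 3 that fell were cox7c (-0.31), cox7a2l (-0.26) and cox6c (-0.23). In mammals the product of COX7A2L helps join complexes III and IV into supercomplexes. Its zebrafish gene read 10.70, 10.65 and 10.70 in hypoxia against 10.95, 10.95 and 10.95 in normoxia, the narrowest normoxia range of the genes described here (limma adjusted p = 0.0384). Its paralog cox7a2a read 9.48, 9.60 and 9.56 against 10.09, 9.79 and 10.16, a difference of -0.47 that was not called (limma adjusted p = 0.0686). The paralogs cox6b1 (-0.13, limma adjusted p = 0.190) and cox6b2 (-0.24, limma adjusted p = 0.108), subunits on the side where cytochrome c docks, were not called. Nor were cox6a1 (-0.31) and cox8a (-0.41).

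**Figure D2:**
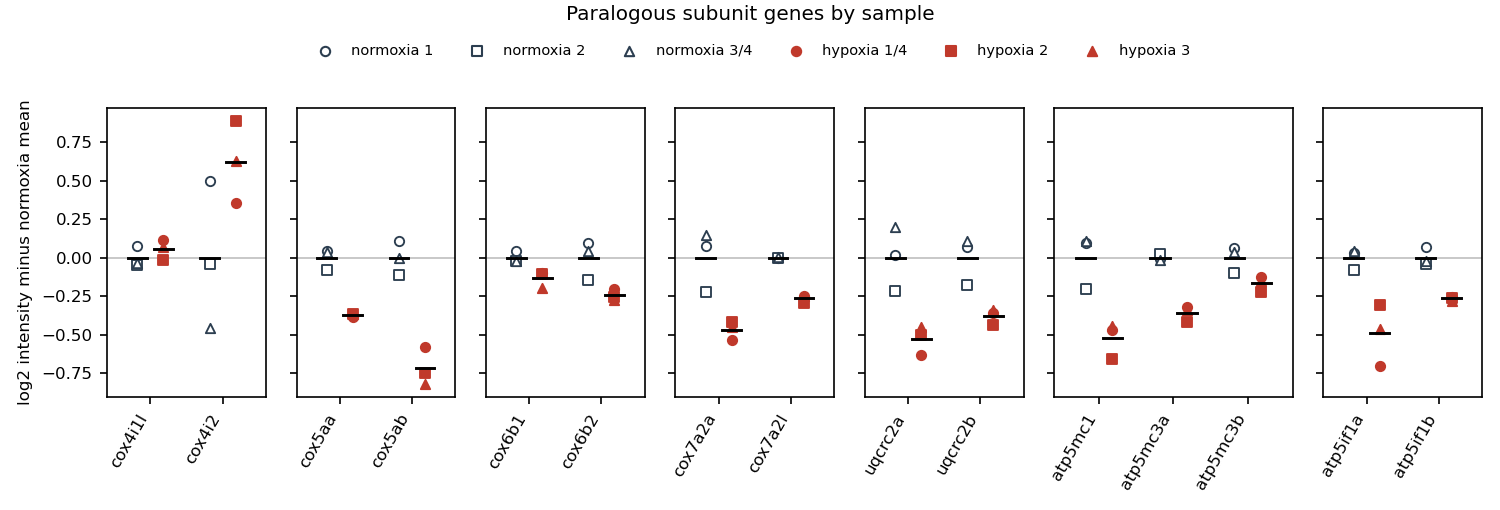
Levels of paralogous subunit genes in each counted sample, as log2 intensity minus each gene's normoxia mean; filled red symbols are hypoxia samples, open symbols normoxia samples and black bars group means (n = 3). For cox4i2, hypoxia 1/4 lies among the normoxia samples, while cox5ab lies lower than cox5aa in every hypoxia sample.

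In complex V, 9 of 18 genes fell, all 18 differences were below 0 and the median was -0.30. The groups overlapped for 1 gene, atp5mea. By role, 3 of the 4 genes of the F1 head and central stalk analysed here fell. So did 2 of 3 of the c ring and 2 of 3 of the peripheral stalk. The genes atp5fa1 and atp5po were not analysed, so these roles are not complete. Of the other membrane subunits 2 of 6 fell, and of the inhibitor 0 of 2. The median differences in the same order were -0.34, -0.36, -0.29, -0.24 and -0.38, so the counts do not rank the roles by size of difference.

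The F1 head makes ATP as the central stalk turns inside it. The stalk subunit gamma, atp5f1c, read 11.74, 11.62 and 11.75 in hypoxia and 12.16, 12.01 and 12.08 in normoxia. It fell to 76.7% (-0.38, SE 0.06, limma adjusted p = 0.0269). The stalk subunit delta, atp5f1d, read 10.99, 11.08 and 11.07 against 11.43, 11.30 and 11.47 and fell to 78.3% (-0.35, SE 0.06, limma adjusted p = 0.0340). The catalytic subunit beta, atp5f1b, read 11.89 ± 0.04 against 12.21 ± 0.04 (SD, n = 3) and fell to 80.0% (limma adjusted p = 0.0255). The fourth gene, atp5f1e for subunit epsilon, had a difference of -0.27 (limma adjusted p = 0.0912).

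The c ring is the rotor in the membrane that protons turn, and several genes encode the same mature subunit c in vertebrates. The level of atp5mc1 was 11.48, 11.29 and 11.51 in hypoxia 1/4, 2 and 3 and 12.05, 11.75 and 12.06 in normoxia 1, 2 and 3/4. Sample 2 was the lowest of its group in both conditions, and the difference was -0.53 (SE 0.10, limma adjusted p = 0.0423), or 69.5% of normoxia. The level of atp5mc3a was 10.99, 10.89 and 10.98 against 11.31, 11.34 and 11.30, a fall to 77.9% (-0.36, SE 0.05, limma adjusted p = 0.0267). The level of atp5mc3b was 12.36, 12.26 and 12.33 against 12.55, 12.39 and 12.52, a difference of -0.17 that was not called (limma adjusted p = 0.154). Hybridization of 1 paralog's RNA to the other's probes was not tested, and the IDs of the atp5mc3a and atp5f1b probe sets share their cluster stem.

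The peripheral stalk holds the F1 head still. Its subunits atp5pb (-0.35) and atp5pf (-0.22) fell, and atp5pd (-0.29, limma adjusted p = 0.0672) was not called. Of the other membrane subunits, which help ATP synthase form dimers and bend the inner membrane, atp5mj (-0.34) and atp5mf (-0.31) fell. Those not called were atp5meb (-0.26), atp5md (-0.22), atp5l (-0.21) and atp5mea (-0.11). A second atp5l probe set was left out as dim and was above the background bound on 0 of 10 arrays.

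The inhibitor protein binds F1 and limits ATP breakdown when the proton gradient collapses. Its gene atp5if1a read 8.87, 9.27 and 9.11 in hypoxia and 9.61, 9.50 and 9.62 in normoxia, a difference of -0.49 (SE 0.11, limma adjusted p = 0.0678). Its paralog atp5if1b read 10.56, 10.55 and 10.53 against 10.88, 10.77 and 10.79, a difference of -0.27 (SE 0.06, limma adjusted p = 0.0507). Neither was called, though in both genes the groups did not overlap.

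Within the paralog families, 9 pairs were compared by the difference between the 2 genes in each sample. The exact permutation test over 3 against 3 samples, two-sided, cannot give a p under 0.1, so that 0 of the 9 pairs could pass a threshold of 0.05. In 5 of the 9 pairs this contrast did not overlap between the groups, and each of these had an exact permutation p of 0.1 (adjusted p = 0.18). For the levels of single probe sets, which are a different quantity, the groups did not overlap in 27.2% in either direction. No share for contrasts of other gene pairs is given here. The atp5mc pairs share genes and are not separate observations. The contrast of cox5aa with cox5ab was larger in each hypoxia sample than in any normoxia sample, by 0.34 on average. The other 4 pairs without overlap changed by -0.36 for atp5mc1 against atp5mc3b, -0.23 for atp5if1a against atp5if1b, -0.19 for atp5mc3a against atp5mc3b and -0.15 for uqcrc2a against uqcrc2b. For cox4i1l and cox4i2 the change was -0.57, and the groups overlapped (exact permutation p = 0.2, adjusted p = 0.3). The groups also overlapped for cox7a2a against cox7a2l (-0.20), atp5mc1 against atp5mc3a (-0.16) and cox6b1 against cox6b2 (0.11), each with an exact permutation p of 0.3 (adjusted p = 0.3).

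**Figure D3:**
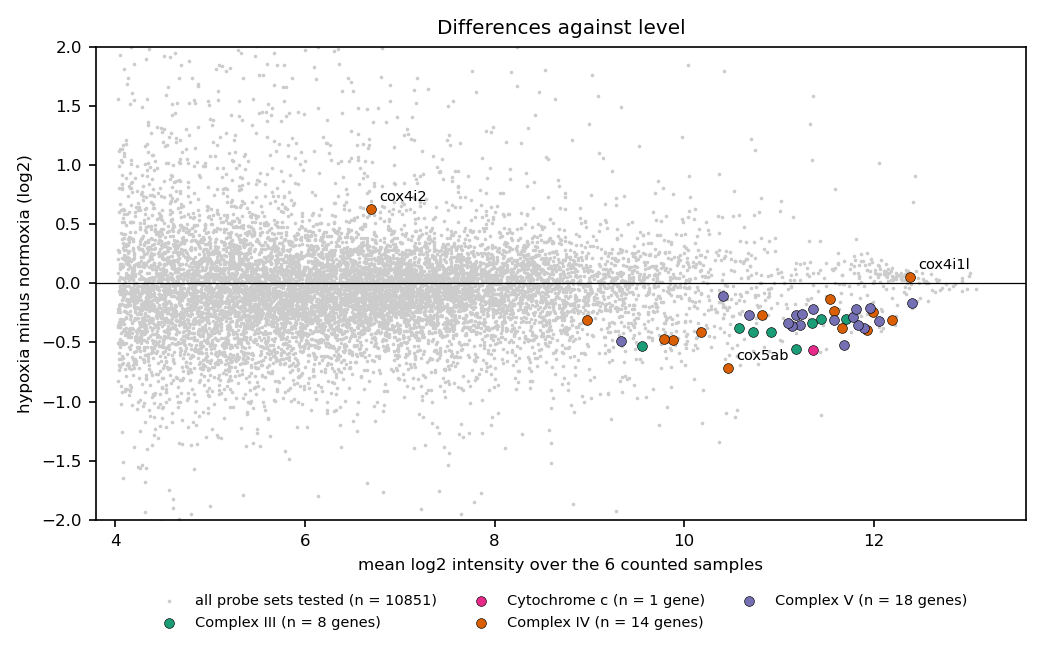
Difference between hypoxia and normoxia (log2) against mean log2 intensity over the 6 counted samples; grey points are all probe sets tested and coloured points the 41 genes by complex, and 177 probe sets beyond 2 in either direction are not drawn. Of the coloured points, 39 lie below 0, and most stand at the bright end; cox4i2 is the dimmest and lies highest.

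The 3 hypoxia samples gave nearly the same picture of the gene list. The median difference from the normoxia mean was -0.32 in hypoxia 1/4, -0.32 in hypoxia 2 and -0.33 in hypoxia 3. In normoxia, sample 2 was the lowest of its group for 34 of the 41 genes and sample 1 the highest for 25. Sample 2 thus lay nearest to the hypoxia samples, with a median deviation from its group mean of -0.08. The SD pooled over both groups ran from 0.02 for cox7a2l to 0.39 for cox4i2, with a median of 0.07. The array records give 3 hybridization runs, each with both conditions. The median difference was -0.32 in run 1 (arrays 1 and 2), -0.33 in run 2 (arrays 3 and 4) and -0.26 in run 3 (array 5 of each group, whose wash record ends in an abort). In each run 39 of the 41 genes were below 0, and cox4i2 was above 0, by 0.57, 0.88 and 0.71. The runs share RNA or near-identical samples and are not independent repeats.

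The genes around these complexes were looked at in 6 lists of 54 tested genes in all, of which 8 fell and 1 rose. Over all probe sets tested, 3.01% were called lower and 0.968% higher, and 6175 of 10851 were below 0. At an unadjusted p under 0.05 in limma there were 2300 in either direction. The list of subunits encoded in mitochondrial DNA had 0 genes tested. The gene higd1a stood both among the assembly factors and among the subunits under other names. Assembly factors of complexes III, IV and V had 6 of 20 fall and all 20 below 0, with a median of -0.46. The gene cox10, whose product makes the heme A precursor for complex IV, read 8.00, 8.04 and 7.83 in hypoxia and 8.78, 8.79 and 8.78 in normoxia, a fall to 56.3% (-0.83, limma adjusted p = 0.0169). A second, dimmer cox10 probe set differed by only -0.17 (limma adjusted p = 0.700), and the mean of both was not called (limma adjusted p = 0.0943). The gene lrpprc, whose product stabilizes mitochondrial mRNAs, read 7.61, 7.45 and 7.67 against 8.32, 8.33 and 8.39, a fall to 58.7% (-0.77, limma adjusted p = 0.0218). The others that fell were cox11 and cox14 for complex IV, uqcc2 for complex III and atpaf1 for the F1 head. Of atpaf1, 2 further probe sets were not called (-0.30 and -0.65). The count of 6 was 0 without hypoxia 3, without normoxia 1 or with no intensity trend, 1 without hypoxia 1/4, without normoxia 2 or without normoxia 3/4, and 4 without hypoxia 2.

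The list for complex II, which feeds electrons from succinate into the chain, had 1 of 7 genes fall and all 7 below 0. Its median was -0.43, and it holds the assembly factors sdhaf2, sdhaf3 and sdhaf4 beside the subunits. The level of sdhaf3 was above the background bound on 0 of 5 hypoxia and 5 of 5 normoxia arrays. The called gene was sdha, the flavin-carrying subunit, which read 10.46, 10.09 and 10.15 in hypoxia and 10.83, 10.78 and 10.73 in normoxia (68.3%, limma adjusted p = 0.0400). Genes that begin with nduf stood for complex I, and they include ndufa4a and ndufa4b, which are given below with complexes IV and V. Of 38 such genes tested, 17 fell and 0 rose, with a median of -0.40. The corresponding values for the 41 genes were 21 called lower and a median of -0.32, and the difference between these lists was not tested. Subunits joined to complexes IV and V under other names had 0 of 4 called in limma (2 lower at an unadjusted p under 0.05), with ndufa4a at -0.28 (limma adjusted p = 0.0851) and its paralog ndufa4b at -0.03 (limma adjusted p = 0.738). None of the subunits encoded in mitochondrial DNA, such as those of the complex IV catalytic core, was analysed here.

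Of 16 regulators of mitochondrial genes tested, 1 fell and 1 rose, with a median of -0.04. The gene ppargc1b, a coactivator of mitochondrial biogenesis, read 6.18, 6.29 and 5.71 in hypoxia and 7.19, 6.79 and 7.22 in normoxia, a fall to 49.8% (-1.01, limma adjusted p = 0.0464). Its second probe set differed by -0.89 and was not called (limma adjusted p = 0.194). The gene hif1al2, of the HIF alpha family of oxygen-regulated factors, read 9.49, 8.86 and 9.05 against 7.34, 7.89 and 7.92, a 2.68-fold rise (1.42, limma adjusted p = 0.0269). The genes of nuclear respiratory factor 1 (nrf1, 0.08) and of the mitochondrial DNA factor tfam (0.14) were not called. The list around cytochrome c in apoptosis, which holds genes that promote and genes that oppose cell death, had 0 of 8 called in limma. At an unadjusted p under 0.05 there were 2 higher, and the median was 0.26. The 6 of 8 above 0 were casp9 and diabloa, and the inhibitors xiap, bcl2l1, mcl1a and mcl1b.

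The profile most like that of cox4i2 over the 6 counted samples was searched among all probe sets with 1 symbol, as a description. The 3 nearest were tmem107 (Pearson r = 0.987), zgc:153738 (0.985) and mmp14b (0.983), and none of them was called. Each r rests on 6 points from the same samples.

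Markers of some other cells moved with the conditions. For comparison, 3.01% of all probe sets tested were called lower and 0.968% higher. At an unadjusted p under 0.05 in limma there were 2300 of 10851 in either direction. In bulk heart RNA fewer cells of a type and less RNA per cell cannot be told apart. Of 9 cardiomyocyte markers measured, all above the background bound on all arrays, 2 fell (myh7, -0.89, and ttn.2, -0.56), 5 were lower at an unadjusted p under 0.05 in limma, and the median was -0.15. Their summed intensity was 36220 to 38260 in hypoxia and 41450 to 42170 in normoxia, and the 7 not called were actc1b (-0.36), nkx2.5 (-0.31), tnnt2a (-0.15), tnnc1a (-0.09), cmlc1 (-0.07), actc1a (-0.06) and myl7 (-0.02). Of 13 red blood cell markers 7 rose (10 higher at an unadjusted p under 0.05 in limma), with a median of 0.72. Their summed intensities were 24780 to 30110 against 19270 to 20640. Those that rose were hbbe2 (1.79), nt5c2l1 (1.22), blvrb (1.16), alas2 (1.13), epb41b (0.87), slc4a1a (0.72) and cahz (0.61). Not called were tal1 (0.83), gata1a (0.69), klf1 (0.36) and the globins hbae3 (0.15), hbaa1 (0.09) and hbba2 (0.06). Of 12 liver markers 3 rose (9 higher at an unadjusted p under 0.05 in limma), with a median of 2.24. Their sum was 14190 to 26580 against 1435 to 10590. Of 8 gill and skin epithelium markers 2 rose (3 higher at that unadjusted p), with sums of 3261 to 5295 against 3552 to 4774. Of 6 pancreas markers 1 fell, with sums of 270.5 to 644.5 against 425.8 to 802.8. Only 2 of the 6 were above the background bound on all arrays, and at that unadjusted p 1 was lower and 1 higher. For 11 skeletal muscle markers the sums were 8066 to 10890 against 8733 to 18580, with a median difference of -0.81. For 9 leukocyte markers they were 6568 to 8306 against 6349 to 7891 (median -0.42). Only 3 endothelium markers were tested (734.5 to 966.2 against 756.6 to 916, median 0.05). Smooth muscle also had only 3 (2464 to 2926 against 2065 to 2770, median 0.19). Of the markers in these lists 0 were called in limma. At an unadjusted p under 0.05 in limma, 2 skeletal muscle and 1 leukocyte marker were lower and 1 smooth muscle marker was higher. The part of these shifts in the lower levels of the 41 genes was not tested.

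**Figure D4:**
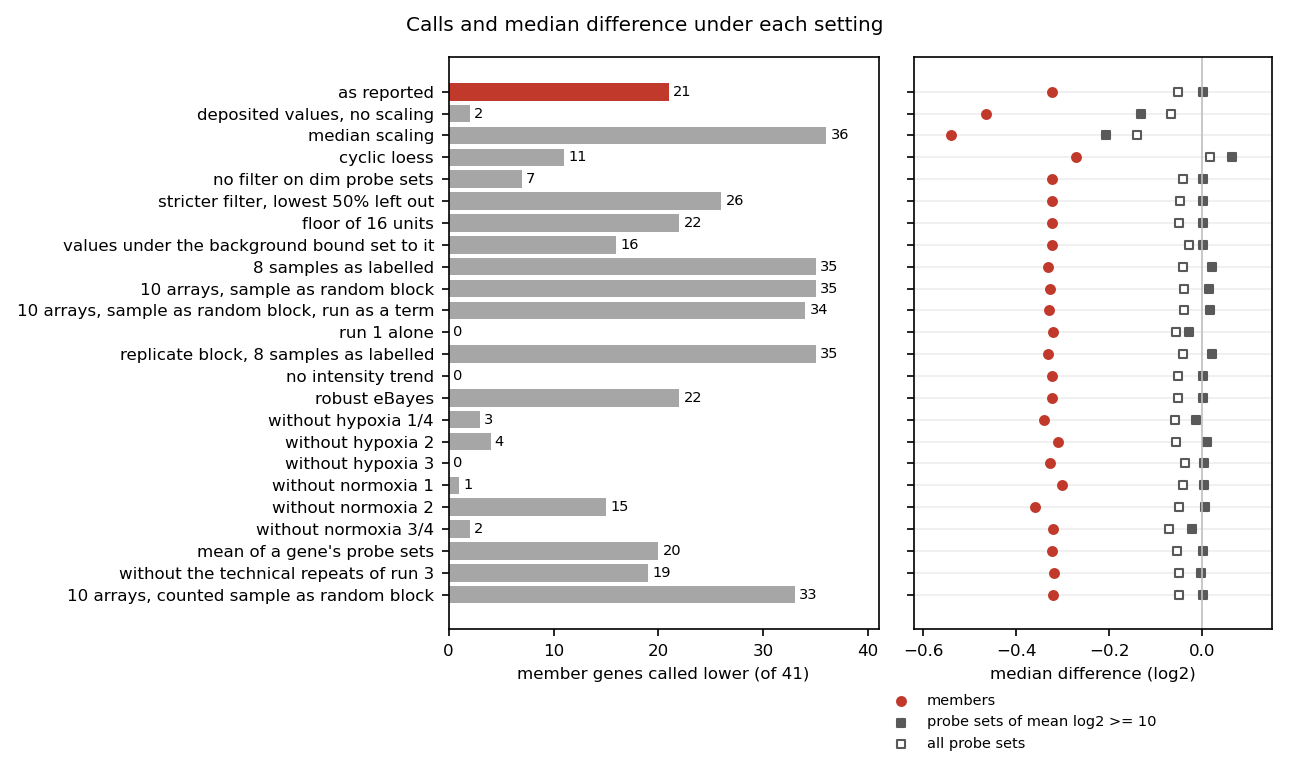
Left, number of the 41 genes called lower under each setting; right, median difference (log2) of the 41 genes (red), of probe sets with a mean log2 of at least 10 (filled squares) and of all probe sets (open squares). The count runs from 0 to 36, while the median of the 41 genes stays between -0.54 and -0.27 and below both other medians in every setting.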

How the data were processed

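The members and lists were chosen with earlier results of these data known. The authors deposited linear intensities, 1 for each of 15617 probe sets on every array. Which software made them is not given in the sources used here. Intensities ran from -116 to 9979 units, with 7.86 to 10.1% at or below 0. Array median intensities, 36.2 to 51.6 units, differed, so the deposited intensities were quantile normalized before logs were taken. Then 1 was added, anything under 1 became 1, and log2 was taken. The 115 control probe sets and the lowest 30% by mean were left out. The background bound was 27.0 units, 2 times the background SD (13.5) that the values below 0 give.

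Hypoxia and normoxia were compared in limma 3.58.1 under R 4.3.3 (lmFit, eBayes with intensity trend, two-sided, Benjamini-Hochberg over 10851 probe sets, threshold 0.05), on 3 counted samples per group, checked on simulated data. The simulation drew independent errors whose spread followed intensity, so it could not test the choice of the intensity trend. Samples were joined where the SD of their log2 differences did not exceed that of the less alike technical pair. The description of hypoxia array 5 names array 4 as well as a repeat of sample 2, and the latter was used. Named genes are the 4 largest called changes per complex, paralogs, members above 0, and the 2 largest called changes of each list; other members are given by their values. Where a gene had more than 1 probe set, the brightest stood for it.

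Gene names came from GEO's platform annotation, in which 10802 probe sets have 1 symbol, 135 several and 4680 none, and all 41 symbols equal those of RefSeq. RefSeq holds 51 symbols that fit the rule, and the other 10 were not analysed here. They are cox4i1, cox5b2, cox5bb, cox6a2, cox7a1, cox7a2b, cox8b, uqcr10, atp5fa1 and atp5po. Alternatives covered scaling, filter, floor, samples, runs, variance model and probe sets. Figures were drawn with Python 3.11.15, pandas 2.3.3 and matplotlib 3.10.9.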

Additional observations from a re-analysis of the deposited data

How the results depend on the processing

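All 24 settings kept 39 or 40 of the 41 genes below 0, and 0 genes were called higher in any. The number called lower, 21 in the reported fit, was 2 for the deposited values without scaling, 36 with median scaling, 11 with cyclic loess and 7 with no filter on dim probe sets. Of all probe sets, 0.553%, 6.58%, 2.12% and 0.91% were called lower in the same order, against 3.01% in the reported fit. Taking the 8 samples as labelled gave 35, as did all 10 arrays with the labelled sample as a random block, 34 with run as a further term, and 33 with the counted sample as the random block, an alternative added after the data were seen. The shares of all probe sets called lower in these fits were 8.49%, 8.45%, 7.86% and 6.01%. The number of the 41 genes called lower was 0 in run 1 alone (30 at an unadjusted p under 0.05 in limma) and 0 with no intensity trend (32). Those fits called 0 and 2 of all 10851 probe sets in either direction. With 1 sample left out the number ran from 0 to 15. The median difference was -0.47 for the deposited values, -0.54 with median scaling, -0.27 with cyclic loess and -0.26 in run 3, and -0.36 to -0.30 with 1 sample left out. Scaling also moved the median over bright probe sets, from -0.03 to -0.25 under median scaling. The difference of cox4i1l turned to -0.055 under median scaling and was 0.21 under cyclic loess. The causes were not tested.

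In the same order (deposited, median scaling, cyclic loess, 8 samples as labelled, 10 arrays with sample block, the same with run, counted-sample block, run 1 alone, no trend), assembly factors called lower were 0, 13, 3, 14, 14, 14, 12, 0 and 0 against 6. Genes called lower over all 6 lists were 0, 19, 4, 21, 21, 18, 16, 0 and 0 against 8, and 5 with no filter or with the mean of a gene's probe sets. With 1 sample left out both counts ran from 0 to 4.

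Deviations of same-numbered samples from their group means correlated at 0.18, 0.09, 0.08 and -0.09, so no strong deviation shared by sample number was seen. The near-identical labelled samples enter these values, and whether samples were collected or processed in pairs was not tested. With the label number as a replicate block, 8 samples as labelled gave 35 genes called lower, 11 assembly factors and 17 genes over the lists. Of all probe sets, 6.43% were called lower in that fit.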
